A study of Mus musculus with 18 samples.

Results

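Fibrinogen, coagulation and fibrinolysis genes were followed in injured mouse kidneys as a named set of 9 genes, found by symbol among the 45706 genes counted, of which 30346 had a count. The set held the fibrinogen chains *Fga*, *Fgb* and *Fgg*, the plasminogen activators *Plau* and *Plat*, the urokinase receptor *Plaur*, tissue factor *F3*, thrombomodulin *Thbd* and the tissue factor pathway inhibitor *Tfpi*. RNA was counted in 18 whole kidneys of C57BL/6 mice. Both kidneys had been made ischemic for 22.5 min and reperfused for 12 h, and no uninjured kidney was included. The *Cxcl12* cohort had 5 KO and 3 control kidneys and the *Myc* cohort 5 of each, all from young adult males. KO mice carried CXCL12 F/F or Cmyc F/F together with Pax8rtTA and TetOCre, so that doxycycline induced the recombinase in tubule cells, while cells outside the tubule kept the floxed gene. Control mice carried the same floxed alleles and Pax8rtTA without TetOCre, and all mice, controls included, had received doxycycline followed by a wash-out. The comparisons ask how the loss of either tubular gene went with the expression of these genes early after injury.

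Fibrinogen is a secreted protein of paired α, β and γ chains that thrombin turns into fibrin. It is known chiefly as an acute-phase protein of the liver, but injured kidney tubules express it too. Clotting starts when tissue factor meets plasma factor VII, and TFPI stops that step, while thrombomodulin on endothelial cells captures thrombin and turns it towards the activation of protein C. Fibrin is removed by plasmin, which urokinase and tissue plasminogen activator release from plasminogen, and urokinase is made in quantity by tubules of the mouse kidney.

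The fibrinogen genes lay side by side within 42.14 kb of chromosome 3 (GRCm38, 83007724 to 83049863), and the sequences before their first annotated exon base are shown because the 3 genes varied together in these kidneys. They were taken from RefSeq on GRCm38.p6, which had promoter entries for 6 of the 9 genes and none for *Plau*, *Plat* and *Thbd*. Capitals mark matches, on either strand, to TTCNNNGAA (STAT), CTGGGAA (the interleukin-6 response element), TTGCNNCAA (C/EBP) or TGANTCA (AP-1).
*Fga*, chr3:83025903-83026075, plus strand: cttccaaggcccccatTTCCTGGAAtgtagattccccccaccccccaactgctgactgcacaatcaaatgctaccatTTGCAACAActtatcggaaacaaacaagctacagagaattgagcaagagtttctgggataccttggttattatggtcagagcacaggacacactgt
*Fgb*, chr3:83049864-83050113, minus strand: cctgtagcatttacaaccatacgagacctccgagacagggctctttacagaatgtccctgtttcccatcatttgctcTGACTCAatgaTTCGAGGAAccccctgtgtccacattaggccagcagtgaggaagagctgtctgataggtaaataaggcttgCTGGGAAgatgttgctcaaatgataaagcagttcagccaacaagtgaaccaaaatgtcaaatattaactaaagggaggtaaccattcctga
*Fgg*, chr3:83007474-83007723, plus strand: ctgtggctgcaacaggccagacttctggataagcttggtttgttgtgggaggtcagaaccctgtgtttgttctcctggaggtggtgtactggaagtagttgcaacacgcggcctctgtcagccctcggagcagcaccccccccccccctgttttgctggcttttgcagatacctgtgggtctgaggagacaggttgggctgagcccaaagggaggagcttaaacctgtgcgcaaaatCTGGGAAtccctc
The *Fga* window is shorter because GENCODE starts this gene upstream of the RefSeq start. The STAT letters lay in the *Fga* and *Fgb* windows, and those of the interleukin-6 element in the *Fgb* and *Fgg* windows. They were not confined to fibrinogen, since the 300-base promoter of *Tfpi* held the interleukin-6 letters and CACGTG, and those of *Plaur* and *F3* held AP-1 letters. The shares of 32851 RefSeq promoters of 300 bases, longer than the windows shown, with these letters were 8.3% for STAT, 11.1% for the interleukin-6 element, 2.08% for C/EBP and 7.81% for AP-1. None of the 3 windows held the HNF1 motif (in 0.00913% of promoters) or CACGTG (the E-box of MYC and MAX, in 7.15%). Such matches describe letters only and were not tested as binding sites.

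Each kidney gave 12918220 to 29749500 reads on genes. In 6 kidneys, 2 *Cxcl12* KO, 2 *Myc* KO and 2 *Myc* control, under 5% of the reads were unmapped. They are called the deeper kidneys, and the *Cxcl12* controls had none. The target genes fitted their labels, since *Cxcl12* was 32.3 ± 6.07 CPM (read counts scaled to library size by TMM) in *Cxcl12* KO and 53.5 ± 7.92 in its controls (SD, n = 5 and 3). *Myc* was 31.0 ± 3.95 CPM with *Myc* deleted and 94.9 ± 14.5 in that cohort's controls (SD, n = 5 each). Their edgeR adjusted p-values were 0.0942 and 8.82e-05. The 10 tubule markers were present in every kidney, with a summed level of 16460 to 22780 CPM. The study's methods describe separate mice, but the labels do not give the animal of each kidney, and p-values measure the spread between these kidneys.

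Per kilobase of exon, urokinase was the most abundant of the 9 genes. Its level averaged 431 RPKM over the 4 group means and ranked 42 among 21519 protein-coding genes. *Fgg* followed with 269 RPKM (rank 79) and *Fga* with 248 RPKM (rank 86), so that transcripts of 2 fibrinogen chains were among the most abundant in these injured kidneys. *Thbd* had 113 RPKM, *F3* 58.1, *Plat* 57.5, *Fgb* 50.4 and *Plaur* 43.0 RPKM. *Tfpi* was far below the rest with 2.49 RPKM (rank 9449), from 135 to 543 reads per kidney. Not all neighbours in this order stood apart. *Plau* lay above *Fgg* in 15 of 18 kidneys and *Fgg* above *Fga* in 14, but *F3* above *Plat* in only 9 and *Fgb* above *Plaur* in only 7.

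**Figure D1:**
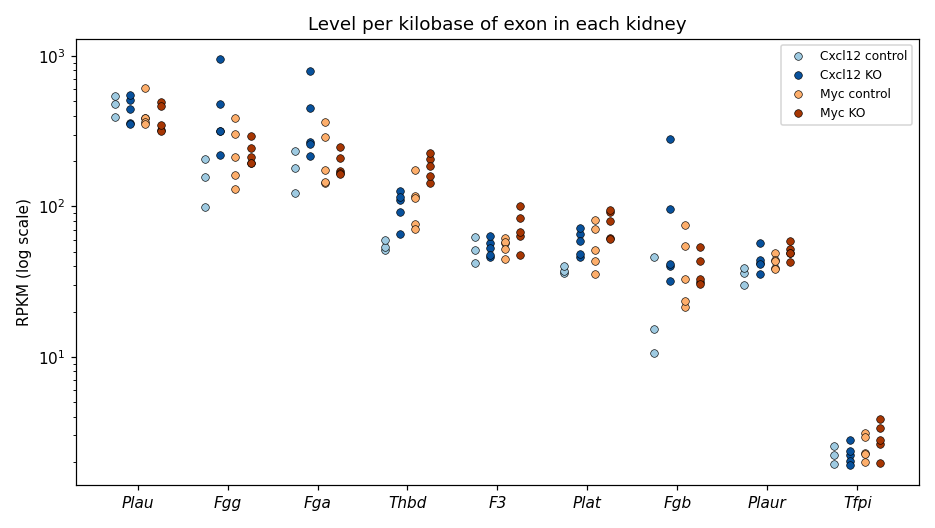
Level of each gene in RPKM (log scale) in every kidney, ordered by the mean of the 4 group means, with 1 point per kidney coloured by group. *Plau*, *Fgg* and *Fga* are highest, *Tfpi* is lowest near 2.49 RPKM, and the points of the fibrinogen genes are spread most widely.

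The genes also differed in how far they varied. From the lowest to the highest of the 18 kidneys, *Fgb* spanned 26.5-fold, *Fgg* 9.67-fold and *Fga* 6.50-fold. *Thbd* spanned 4.37-fold, and *Plat*, *F3*, *Tfpi*, *Plaur* and *Plau* between 1.93-fold and 2.65-fold.

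No gene of the set passed the test in either cohort. With edgeR's quasi-likelihood test at an adjusted p under 0.05, 0 of 9 were called in *Cxcl12* KO against control, where 0 of 15154 genes were called in all (0%). At an unadjusted p under 0.05, 6 of the 9 passed, all higher in KO, against 972 genes higher in all (6.41%). They were *Fga*, *Fgb*, *Fgg*, *Plaur*, *Plat* and *Thbd*. DESeq2 called 2 (*Plat* and *Thbd*), where 0.983% of all genes were called higher. Without the filter on low counts edgeR called *Fgg*, *Plat* and *Thbd*, where 0.279% of genes were called higher. In the *Myc* cohort 0 of 9 were called against 246 of 14936 genes (1.65%), 3 of 9 (*Plaur*, *F3* and *Thbd*, all higher in KO) had an unadjusted p under 0.05 against 10.6% of all genes in that direction, and DESeq2 called *Thbd* alone against 3.25% called higher. The median log2 fold change of the 9 genes was 0.62 for *Cxcl12* KO and 0.22 for *Myc* KO, beside 0.00083 and -0.00083 over all genes tested. The 9 genes were chosen with earlier results of these data known, and the 3 fibrinogen chains vary together. The counts and medians are therefore no independent test of the set.

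**Figure D2:**
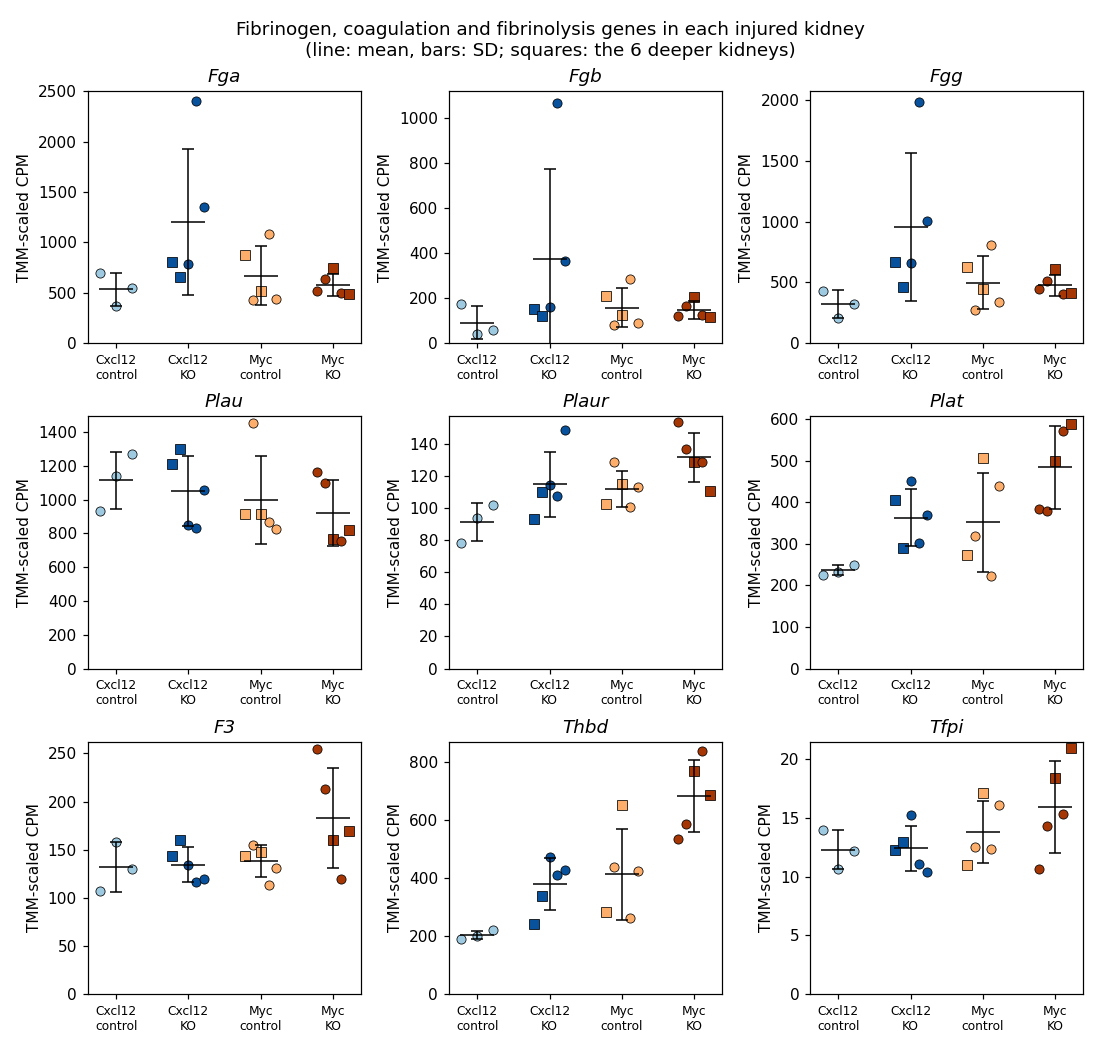
TMM-scaled CPM of each of the 9 genes, with 1 point per kidney, grouped by genotype; horizontal lines are means, bars are SDs (the lower bar of *Fgb* in *Cxcl12* KO passes 0 and is cut there) and squares are the 6 deeper kidneys. *Cxcl12* KO replicate 4 stands above the others in all 3 fibrinogen panels, and the *Thbd* points of each KO group lie mostly above those of its controls.

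The fibrinogen chains were higher on average in *Cxcl12* KO than in *Cxcl12* control kidneys, by 2.23-fold for *Fga* to 4.07-fold for *Fgb*, and did not show such a difference in the *Myc* cohort. *Fgg* (ENSMUSG00000033860, 83007724 to 83015049), the γ chain, had 665, 459, 658, 1989 and 1005 CPM in *Cxcl12* KO replicates 1 to 5 and 432, 206 and 326 CPM in the 3 controls. The groups did not overlap, as for 4.96% of all genes tested with KO higher, though the lowest KO kidney came close to the highest control. The log2 estimate was 1.57 with a standard error of 0.44, with edgeR's adjusted p at 0.189 and a two-sided exact permutation p of 0.0536, where the smallest possible is 0.018.

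*Fga* (ENSMUSG00000028001, 83026076 to 83033627), the α chain, had 811, 654, 782, 2403 and 1355 CPM in *Cxcl12* KO and 697, 369.8 and 544 CPM in control kidneys. The ranges overlapped through KO replicate 2 and control replicate 1. The estimate was 1.16 on the log2 scale (standard error 0.40, edgeR adjusted p = 0.279). *Fgb* (ENSMUSG00000033831, 83040141 to 83049863), the β chain, had 153, 122, 159, 1066 and 366 CPM in *Cxcl12* KO and 175, 40.2 and 57.9 CPM in control kidneys. Its KO mean was the least certain, since the SD of 399 CPM exceeded the mean of 373 CPM. The log2 fold change of *Fgb* was 2.03 (standard error 0.77, edgeR adjusted p = 0.315).

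A single kidney, *Cxcl12* KO replicate 4, held the highest value of all 3 chains. Without it the log2 fold changes were 0.74 for *Fga*, 1.13 for *Fgb* and 1.11 for *Fgg*. Without *Cxcl12* control replicate 1, the control with the most fibrinogen, they were 1.39, 2.92 and 1.84. The KO kidney named had a summed hepatocyte marker level of 70.5 CPM, the median of its group, a neutrophil sum of 136 CPM and a red cell sum of 164 CPM, the highest of the 5. Over all kidneys the hepatocyte markers summed to 50.6 to 66.4 CPM in *Cxcl12* control, 52.6 to 89.0 in the matching KO group, and 59.2 to 103 and 57.7 to 94.5 in the controls and KO kidneys of the *Myc* cohort. Of these 10 markers, 6 were counted in every kidney, with *Ttr* reaching 1322 and *Alb* 892 counts. The other 4 were at 0 in at least 7 kidneys, and of these *Cps1* and *Tat*, enzymes of the hepatocyte, had at most 1 count in any kidney, *Ahsg* at most 3 and *Serpina3k* at most 15. *Fga* had at least 6492 counts. The part of the hepatocyte markers in the result was not tested. Red cell markers summed to 15.1 to 67.5 CPM in *Cxcl12* control and 37.4 to 164 CPM in *Cxcl12* KO kidneys. Of the 6 tested, 5 had positive log2 fold changes, with 0 called by edgeR. These were *Hbb-bs* (1.17), *Hbb-bt* (1.47), *Hba-a1* (1.20), *Hba-a2* (1.03) and *Alas2* (1.13). *Slc4a1* went the other way (log2 fold change -1.43, adjusted p of 0.0973 from edgeR and 0.0078 from DESeq2). It was low, with means of 0.828 CPM in *Cxcl12* KO and 2.29 CPM in control kidneys, and whether its RNA came from red cells was not tested. The part of the red cell markers in the result was not tested.

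For *Myc*, the fibrinogen values were closely alike in the KO kidneys and more spread in the controls. *Fgg* had 448, 514, 614, 408 and 409 CPM in *Myc* KO and 632, 271, 444, 812 and 339.5 CPM in *Myc* control kidneys. *Fga* had 514, 634, 745.5, 499 and 491 CPM in *Myc* KO and 874, 430.2, 522.5, 1089 and 436.5 CPM in *Myc* control. *Fgb* had 120.2, 166, 206, 126 and 115 CPM in *Myc* KO and 207, 81.3, 126, 285 and 90.1 CPM in *Myc* control. The KO values lay inside the control range for all 3 chains. Their log2 fold changes were -0.21 (standard error 0.25) for *Fga*, -0.10 (0.31) for *Fgb* and -0.06 (0.25) for *Fgg*, each within its standard error of 0. With limma voom the estimates for *Fgb* and *Fgg* were 0.03 and 0.04.

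Taken as *Myc* minus *Cxcl12* in 1 fit over 18 kidneys, the 2 KO effects differed by -1.38 for *Fga*, -2.14 for *Fgb* and -1.63 for *Fgg*. With standard errors of 0.51, 0.84 and 0.53, none passed (edgeR adjusted p = 0.268, 0.311 and 0.203, where 11 of 15903 genes did, 0.0692%). Without *Cxcl12* KO replicate 4 the differences were -0.96, -1.24 and -1.18, and without *Cxcl12* control replicate 1 that of *Fgb* was -3.03. No other of the 9 genes passed either, and DESeq2 called 0. Of the 3 loci, only *Fgg* shares exon bases with another gene, 115 bases of the lincRNA *Gm30097* on the opposite strand. The libraries carried no strand information. Reads on more than 1 gene were counted as ambiguous and left out, so reads of these bases can be missing from the *Fgg* counts.

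**Figure D3:**
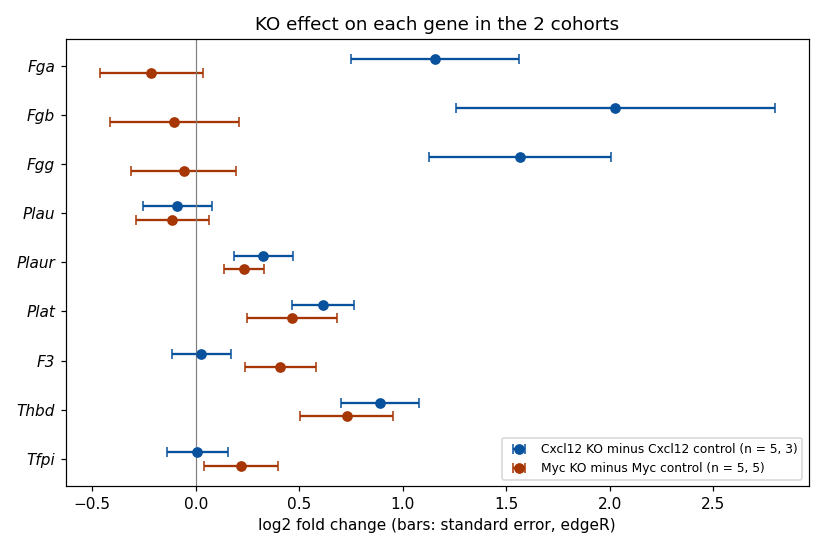
Log2 fold change of KO against control for each gene in the *Cxcl12* cohort (blue, n = 5 and 3) and the *Myc* cohort (brown, n = 5 and 5), with standard errors from edgeR. The fibrinogen chains lie between 1.16 and 2.03 in the *Cxcl12* cohort and between -0.21 and -0.06 in the *Myc* cohort, and *Thbd* lies at 0.89 and 0.73.

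Within groups the 3 chains varied together from kidney to kidney. With the group means removed from log2 CPM, *Fga* and *Fgg* correlated at Pearson's r = 0.984 and Spearman's rho = 0.981 over 18 kidneys (permutation p = 1e-05 for each, the smallest that 100000 draws can give, adjusted p = 0.00012 over 36 gene pairs). *Fga* with *Fgb* gave r = 0.965 (rho = 0.940) and *Fgb* with *Fgg* r = 0.962 (rho = 0.961), with the same permutation p. Leaving out the 2 kidneys farthest from the median of the first gene gave r = 0.968, 0.940 and 0.958. Among the 12 kidneys outside the deeper group r was 0.987, 0.958 and 0.954, and among the 6 deeper kidneys 0.947, 0.985 and 0.951. The deeper kidneys are 2 in each of 3 groups and mirror each other once the group mean is removed. Their r therefore rests on 3 differences. Without *Cxcl12* KO replicate 4 the coefficients were 0.974, 0.943 and 0.937. Among 14726 genes tested in both cohorts, the nearest genes of each chain by this measure were the other 2 chains.

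**Figure D4:**
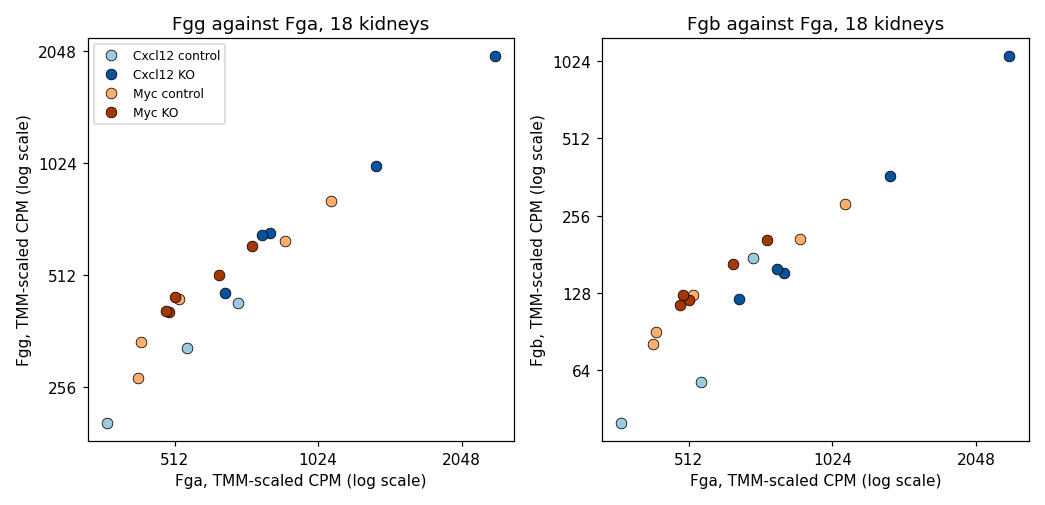
*Fgg* (left) and *Fgb* (right) against *Fga* in TMM-scaled CPM on log scales, with 1 point per kidney coloured by group. The points fall along a line in both panels, and *Cxcl12* KO replicate 4 (2403 CPM *Fga*, 1989 CPM *Fgg*, 1066 CPM *Fgb*) lies at the upper end.

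Their proportions were not fixed. The ratio of *Fga* to *Fgb* in RPKM ran from 2.85 to 11.9 with a median of 5.36, and it was lowest in the kidney with the most fibrinogen. The RPKM ratio of *Fga* to *Fgg* lay between 1.12 and 1.25 in the 3 *Cxcl12* control kidneys and between 0.797 and 1.10 in the other 15.

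Thrombomodulin, like *Plat*, was above the control mean in all 5 KO kidneys of both cohorts. *Thbd* (ENSMUSG00000074743, chromosome 2, 148404466 to 148408188, a single exon) had 243, 339, 473, 412 and 427 CPM in *Cxcl12* KO and 192, 199 and 221 CPM in *Cxcl12* control kidneys. No KO kidney overlapped the controls, which is so, with KO higher, for 4.96% of all genes tested. The KO mean was 1.85-fold that of the controls (log2 0.89 ± 0.19 standard error, exact permutation p = 0.0357). Its adjusted p was 0.0973 from edgeR and 0.00054 from DESeq2, and over the alternatives it ran from 0.00054 to 0.331.

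*Thbd* had 535, 588, 768, 838 and 686 CPM in *Myc* KO and 285, 438.5, 653, 262 and 426 CPM in *Myc* control kidneys. The highest control, replicate 3, lay above 2 of the KO kidneys. Here the KO mean was 1.66-fold higher (log2 0.73 ± 0.22 standard error, exact permutation p = 0.0238), with an adjusted p of 0.106 from edgeR and 0.0204 from DESeq2. Without that control kidney the log2 fold change was 0.96 and edgeR's adjusted p was 0.0213, while the fits without any of the other 9 kidneys gave 0.60 to 0.80 with adjusted p from 0.104 to 0.221. The KO effects of the cohorts differed by -0.17 (standard error 0.33, edgeR adjusted p = 0.90).

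Outside the deeper kidneys, where 3 *Cxcl12* KO were compared with 3 control kidneys, the log2 fold change of *Thbd* was 1.09 with an edgeR adjusted p of 0.0102 (0.281% of genes called higher). A term for the deeper kidneys gave 1.10 and an adjusted p of 0.00958 (0.449% of genes called higher). The sum of 10 endothelial markers ran from 931 to 973 CPM in *Cxcl12* control, 866 to 1230 in *Cxcl12* KO, and from 960 to 1414 CPM in the controls and 1132 to 1568 CPM in the KO kidneys of the *Myc* cohort, and 7 and 8 of the 10 had positive log2 fold changes (*Tek*, *Tie1* and *Plvap* stood at -0.45, -0.24 and -0.23 in *Cxcl12* KO), with 0 called by edgeR in either cohort. At an unadjusted p under 0.05 there were 4 in each cohort, of which *Tie1* in *Cxcl12* KO lay lower and the others higher (13% and 21.9% of all genes in either direction), and DESeq2 called 0 and 2. The part of these markers in the *Thbd* values was not tested. Divided by this sum, a measure added after the values had been seen, *Thbd* stood at 0.255 to 0.493 in *Cxcl12* KO against 0.199 to 0.237 in its controls (exact permutation p = 0.0357). For *Myc* the quotient was 0.437 to 0.534 against 0.273 to 0.462 (exact permutation p = 0.0159). The log2 differences of the quotient were 0.77 for *Cxcl12* and 0.49 for *Myc*, beside 0.86 and 0.79 in undivided log2 CPM. As the measure followed the values, its p-values do not test the part of the endothelial markers. In whole kidneys, more cells of a type and more RNA per cell cannot be told apart.

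The activators of plasminogen differed from each other. *Plat* (ENSMUSG00000031538, chromosome 8, 22757727 to 22782844), tissue plasminogen activator, had 406, 289, 451, 301 and 369 CPM in *Cxcl12* KO and 226, 233.5 and 249.5 CPM in control kidneys. The groups did not overlap, as for 4.96% of all genes tested with KO higher, and the 3 controls lay close together. The log2 difference was 0.62 ± 0.15 (standard error, exact permutation p = 0.0357), with an adjusted p of 0.132 from edgeR and 0.00627 from DESeq2. In *Myc* KO kidneys *Plat* had 384, 378, 499, 571 and 588 CPM, against 272, 318, 506, 222 and 439.6 CPM in *Myc* control. All 5 KO kidneys lay above the control mean of 352 CPM, but control replicates 3 and 5 lay among them. On the log2 scale this was 0.46 ± 0.22 (standard error, edgeR adjusted p = 0.232, exact permutation p = 0.103). *Plat* was also divided by the endothelial sum, the measure added after the values had been seen. It was 0.271 to 0.426 in *Cxcl12* KO against 0.234 to 0.268 in control kidneys (exact permutation p = 0.0357). For *Myc* it was 0.304 to 0.375 in KO against 0.231 to 0.358 in control kidneys (exact permutation p = 0.111). The log2 differences of this quotient were 0.51 and 0.21, beside 0.6 and 0.5 in undivided log2 CPM.

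Urokinase, the more abundant activator, had overlapping values in all groups. *Plau* (ENSMUSG00000021822, chromosome 14, 20836660 to 20843385) averaged 1050 ± 208 and 1114 ± 170 CPM in *Cxcl12* KO and control kidneys (SD, n = 5 and 3) and 921 ± 195 and 996 ± 260 CPM in the KO and control kidneys of the *Myc* cohort (SD, n = 5 each). Its log2 fold changes were -0.09 (standard error 0.17) and -0.11 (standard error 0.18) in the *Cxcl12* and *Myc* cohorts. The widest departure was *Myc* control replicate 2 with 1456 CPM, beside 828 to 918 CPM in the other 4. The ratio of *Plau* to *Plat* in RPKM ran from 10.9 to 13.4 in *Cxcl12* control and from 4.98 to 11.8 in *Cxcl12* KO kidneys. In the *Myc* cohort it ran from 4.78 to 12.1 in control and from 3.485 to 8.01 in KO kidneys.

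The urokinase receptor gene *Plaur* (ENSMUSG00000046223, chromosome 7, 24462484 to 24475968) had 93.4, 110.1, 114.5, 108 and 148 CPM in *Cxcl12* KO and 78.4, 93.7 and 102 CPM in control kidneys. With *Myc* deleted it had 153, 137, 128.5, 128.5 and 111 CPM, against 102.5, 129, 115, 100.4 and 113 CPM in control kidneys. Ranges overlapped in both cohorts. The log2 fold changes were 0.33 (standard error 0.14, edgeR adjusted p = 0.367) and 0.23 (standard error 0.10, edgeR adjusted p = 0.194).

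*F3* (ENSMUSG00000028128, chromosome 3, 121723537 to 121735048), tissue factor, had 144, 159.8, 134, 116 and 119 CPM in *Cxcl12* KO and 107, 158.5 and 129.8 CPM in control kidneys, a log2 fold change of 0.03 (standard error 0.14). In *Myc* KO kidneys it had 255, 213, 160.0, 119 and 169.7 CPM, and in *Myc* control 144, 155, 147, 113 and 131 CPM. Of the 5 *Myc* KO kidneys, 4 lay above all 5 controls and replicate 4 among them. The log2 difference was 0.41 ± 0.17 (standard error, edgeR adjusted p = 0.195, exact permutation p = 0.119). *Tfpi* (ENSMUSG00000027082, chromosome 2, 84432855 to 84476775), which inhibits tissue factor with factor VII, had group means of 12.3 to 15.9 CPM and ran from 10.4 to 20.9 CPM over all kidneys. Its log2 fold changes were 0.01 (standard error 0.15) and 0.22 (standard error 0.18).

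*F3* and *Plau* varied together within groups at r = 0.725 (rho = 0.790, permutation adjusted p = 0.00972 and 0.00774), and at 0.696 without the 2 farthest kidneys. Among the 12 kidneys outside the deeper group r was 0.722. The 6 deeper ones gave r = 0.947, which rests on a single difference between the 2 deeper kidneys of each group. *Plat* and *Tfpi* gave r = 0.686 (permutation adjusted p = 0.0468), while Spearman's rho of 0.682 missed the threshold (adjusted p = 0.0586). These and the 3 fibrinogen pairs were the 5 of 36 pairs with an adjusted p under 0.05. *Thbd* and *Plat* gave r = 0.692 (adjusted p = 0.0853), which fell to 0.462 without the 2 farthest kidneys.

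**Figure D5:**
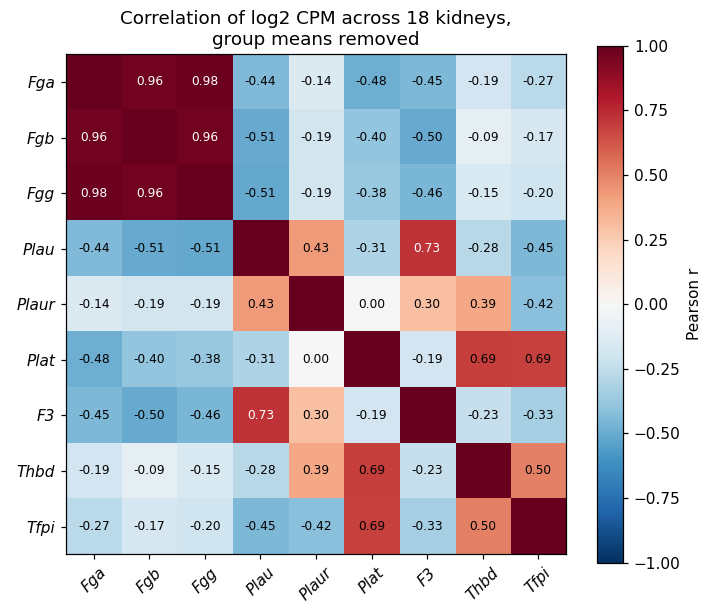
Pearson's r of log2 CPM between the 9 genes over 18 kidneys after the group means were removed, from -1 (blue) to 1 (red). The fibrinogen block lies at 0.96 to 0.98, *Plau* and *F3* at 0.73, and *F3* with *Fgb* at -0.50.

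The genes most like each member by this measure, over the 18 kidneys, were *Lrrc32* (r = 0.950) and *Flt4* (r = 0.939) for *Thbd*, and *Adora1* (r = 0.944) and *Camk2n1* (r = 0.925) for *Plat*. They were *Adm* (r = 0.860) and *Slc20a1* (r = 0.799) for *F3*, *Fam214b* (r = 0.930) and *Rassf1* (r = 0.899) for *Plaur*, and *Tmod3* (r = 0.922) and *Gimap5* (r = 0.911) for *Tfpi*. For *Plau* they were ENSMUSG00000106744, which has no symbol in GENCODE vM21, and *4930579F01Rik* (r = 0.854 and 0.847). The latter averaged only 1.15 CPM. All of these are the highest values picked from 14726 genes over 18 kidneys, and none was tested against what such a search gives by chance.

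Other genes of the clotting and plasmin systems gave no calls in either KO comparison. Of 47 such genes found, 34 were tested, and 0 of 34 had an edgeR adjusted p under 0.05 in either cohort. At an unadjusted p under 0.05 there were 8 of 34 in the *Cxcl12* cohort, 5 of them higher in KO, beside 13% of all genes. In the *Myc* cohort there were 9 of 34, 6 of them higher, beside 21.9% of all genes. DESeq2 called 2 higher and 1 lower in the *Cxcl12* cohort and 0 in the other. The median log2 fold change of the list was -0.05 and 0.14. Some genes of plasma proteins were barely expressed and others were not, with 34 of the 47 passing the filter on low counts. Prothrombin *F2* had at most 6 counts in any kidney, factor VII *F7* at most 5, *F9* and *F11* at most 1, and plasminogen, *Plg*, the substrate of both activators, at most 7, with 6 kidneys at 0.

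*Procr*, the endothelial receptor of protein C and the partner of thrombomodulin, had 16.5, 22, 27.4, 28.6 and 26.2 CPM in *Cxcl12* KO and 15.9, 15.0 and 10.2 CPM in control kidneys. The groups did not overlap, as for 4.96% of all genes tested with KO higher. The log2 difference was 0.81 ± 0.20 (standard error), with an adjusted p of 0.132 from edgeR and 0.00773 from DESeq2. For *Myc* it was 0.21 (edgeR adjusted p = 0.455). The thrombin receptor *F2r* stood at 234 and 234 CPM in *Cxcl12* KO and control and at 303 and 275 CPM in *Myc* KO and control kidneys.

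*Gas6*, a vitamin K-dependent ligand of receptor tyrosine kinases, ran the other way. It averaged 244.5 ± 14.5 and 368 ± 32.3 CPM in *Cxcl12* KO and control kidneys (SD, n = 5 and 3). The KO kidneys ran from 222 to 260.2 CPM and the controls from 337 to 401 CPM. The log2 difference was -0.60 ± 0.09 (standard error; adjusted p of 0.0617 from edgeR and 9.02e-08 from DESeq2), and -0.37 in the *Myc* cohort (edgeR adjusted p = 0.166). *Cpb2*, which encodes an inhibitor of fibrinolysis, was low, with 0.792 ± 0.434 CPM in *Myc* KO and 2.24 ± 0.928 in the control kidneys (SD, n = 5 each; log2 fold change -1.501, edgeR adjusted p = 0.0835). *Pros1*, protein S, had a log2 fold change of 0.38 in the *Myc* cohort (edgeR adjusted p = 0.154).

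The 2 control groups were not alike for thrombomodulin. *Thbd* was 413 ± 156 CPM in *Myc* control and 204 ± 15.2 in *Cxcl12* control kidneys (SD, n = 5 and 3), a log2 difference of 1.02 (standard error 0.26, edgeR adjusted p = 0.0438, where 1.12% of 15903 genes were called higher). All 5 *Myc* control kidneys lay above the 3 *Cxcl12* controls (6.23% of all genes). The call was lost with limma voom (adjusted p = 0.0533) and with a term for the deeper kidneys (adjusted p = 0.0607). It was also lost without any of the 3 *Cxcl12* controls (adjusted p = 0.186, 0.148 and 0.120), without *Myc* control replicate 2, 3 or 5 (0.0905, 0.102 and 0.0725), and without *Cxcl12* KO replicate 2 (0.0532) or *Myc* KO replicate 2 or 3 (0.0522 and 0.0537), which share the fit. *Procr* and, chosen after its values were seen, the fibrinogen-like *Fgl2* were also higher in *Myc* control kidneys (log2 difference 1.00 and 1.41, edgeR adjusted p = 0.0206 and 0.0496). In fits without 1 kidney the *Procr* call held in 14 of 18, being lost without any of the *Cxcl12* controls or without *Myc* control replicate 3 (highest adjusted p = 0.113). The *Fgl2* call held in 5 of 18, and was not made with RLE size factors, with limma voom (adjusted p = 0.0809), with the deeper term (0.0885) or outside the deeper group (log2 difference 0.98, adjusted p = 0.171). The *Thbd* level of *Cxcl12* KO kidneys (379 ± 90.0 CPM, SD, n = 5) lay below the mean of the *Myc* controls.

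Neutrophil markers summed to 20.7 to 28.9 CPM in the *Cxcl12* controls and 32.8 to 143 CPM in their KO group. For *Myc* the sums were 51.8 to 248 CPM in controls and 152 to 284 CPM in KO kidneys, the same order of group medians as for *Thbd*. That order was not particular to neutrophil markers, since the medians of the platelet sum, the endothelial sum and *Plaur* had it too. All 7 neutrophil markers tested in the *Cxcl12* cohort had positive log2 fold changes, and so had all 8 tested for *Myc*. For *Cxcl12*, edgeR called 0, DESeq2 called 1 (0.983% of all genes higher) and 7 had an unadjusted p under 0.05 (6.41% higher). For *Myc* there were 0 under each of these rules (10.6% of all genes higher at the unadjusted p). Between the control groups 3 of 10 were called higher in *Myc* control by edgeR (1.12% of all genes). Platelet markers summed to 6.41 to 8.07, 6.73 to 19.2, 6.32 to 16.5 and 14.3 to 22.9 CPM in the same order. The macrophage markers gave 108 to 130.3, 93.1 to 141, 116 to 156 and 112 to 158 CPM. edgeR called 0 platelet and 0 macrophage markers in either cohort or between the controls, where DESeq2 called 1 macrophage marker lower in *Myc* KO and no other. Only 3 platelet markers were tested in each KO comparison and 5 between the controls, while all 10 macrophage markers were tested in each. At an unadjusted p under 0.05 there were 0 of 3, 1 of 3 and 2 of 5 platelet markers for *Cxcl12*, *Myc* and the controls, and 1, 3 and 0 of 10 macrophage markers. Over all genes this was 13% for *Cxcl12*, 21.9% for *Myc* and 2815 of 15903 genes for the controls. The part of these cells in the differences of the 9 genes was not tested, and the cohort cannot be told apart from the floxed allele that defines it.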

How the data were processed

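Per the labels, RNA of snap-frozen kidneys was extracted with RNeasy and sequenced by GATC. According to the submitters' notes, the authors used Trimmomatic 0.32 and STAR 2.4.0 on GRCm38, and deposited raw, unnormalized counts of reads on each gene. The annotation release is not given in the sources used here. The unstranded column was used, and rows that name no gene were left out (unmapped 3.7% to 6.5%, multimapping 16.6% to 18.6%, no feature 4.8% to 7.1% and ambiguous 2.3% to 2.5% of reads). Symbols and positions came from GENCODE vM21. Low genes were removed per cohort by filterByExpr, libraries were scaled by TMM, and groups were tested with edgeR 4.0.16 (quasi-likelihood, Benjamini-Hochberg adjustment over all genes) in R 4.3.3, and the differences between cohorts were fitted over all 18 kidneys. The standard error was the log2 fold change divided by the square root of F. Exact permutation tests were two-sided, on mean log2 CPM with a prior count of 2. RPKM used the summed exon length. Alternatives were DESeq2 1.42.0, limma 3.58.1, other size factors, no filter, a term for or exclusion of the deeper kidneys, a replicate block and leaving out each kidney. The scripts were tested on simulated data. In none of the 33 pairs of kidneys of the same group did counts agree within sampling noise.

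The members and gene lists were chosen with earlier results of these data known, as was the cut for the deeper kidneys. Named beyond the 9 genes were the targets, *F2r*, *Procr* and *Plg*, the 2 listed genes per cohort with the smallest unadjusted p, and the 2 nearest genes of each member. *Klkb1* was not analysed here, and 1 gene named by this rule is not reported here.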

Additional observations from a re-analysis of the deposited data

Results flagged for a closer look

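In 27 sets of 4 or more kidneys (a gene in a group of 5), 2 held a kidney that stood apart from the others by Dixon's criterion of 0.71 for 5 samples, where chance gives about 1 in 20. *Fgb* in *Cxcl12* KO replicate 4 was the highest of its group with 1066 CPM, next to 366 CPM in replicate 5. *Plau* in *Myc* control replicate 2 was the highest of its group with 1456 CPM, next to 918 CPM in replicate 3.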

How the results depend on the processing

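The number of the 9 genes called in the *Cxcl12* cohort moved from 0 to 3 with no filter (*Fgg*, *Plat* and *Thbd*), 2 with DESeq2, 1 with a term for the deeper kidneys, 1 outside the deeper group, and 0 to 1 across fits without 1 kidney (1 without *Cxcl12* KO replicate 1). In the *Myc* cohort it moved from 0 to 1 with DESeq2 and 0 to 1 without 1 kidney (1 without *Myc* control replicate 3). Between the control groups it moved from 1 to 0 with limma voom, 0 with a term for the deeper kidneys, and 0 to 1 without 1 kidney. The cause was not tested. No member was called for the difference of KO effects under any alternative.

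Estimates near 0 changed sign. In the *Cxcl12* cohort these were *F3* (-0.10 with the deeper term, -0.11 outside the deeper group) and *Tfpi* (-0.015 and -0.021). In the *Myc* cohort *Fgb* was 0.030 with limma voom and 0.033 with the replicate block, *Fgg* 0.043 and 0.040, and *Tfpi* -0.0070 outside the deeper group. For the difference of effects, *Plau* was 0.0028 with limma voom and 0.24 outside the deeper group, *Plaur* 0.010 and *Thbd* 0.046 with the replicate block. Without 1 kidney, log2 fold changes in the *Cxcl12* cohort ran from -0.20 to 0.012 for *Plau*, -0.10 to 0.18 for *F3* and -0.087 to 0.11 for *Tfpi*. In the *Myc* cohort they ran from -0.34 to 0.029 for *Fga*, -0.27 to 0.22 for *Fgb*, -0.21 to 0.19 for *Fgg* and -0.21 to 0.066 for *Plau*. The difference of effects ran from -0.13 to 0.15 for *Plau*, -0.18 to 0.016 for *Plaur*, -0.28 to 0.011 for *Plat* and -0.29 to 0.060 for *Thbd*, and *F3* between the control groups from -0.064 to 0.23. Of all estimates of the 9 genes under the alternatives, 688 kept direction and side of the threshold, 38 changed sign, 10 passed it newly and 11 no longer passed.

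Whether replicate numbers pair the kidneys cannot be told from so few pairs. Deviations of same-numbered KO and control kidneys correlated at -0.032 to 0.134 (*Cxcl12*, 3 pairs) and -0.211 to 0.402 (*Myc*, 5 pairs). Their means were 0.068 and 0.053, beside -0.017 and -0.011 for kidneys of different numbers. In the *Cxcl12* cohort 2 of 3 and in the *Myc* cohort 1 of 5 KO kidneys were closest to their own number. With the replicate block the *Cxcl12* log2 fold changes of *Fga*, *Fgb* and *Fgg* were 0.52, 0.95 and 0.93. Their differences of effects were -0.65, -0.92 and -0.89. *Cxcl12* KO replicates 4 and 5 have no control of the same number, so the *Cxcl12* part rests on replicates 1 to 3. The 2 kidneys that thus drop out had the most *Fga*, *Fgb* and *Fgg* of their group. With the block 0 members were called in either cohort, and over all genes 0 (*Cxcl12*), 18 (*Myc*) and 1 (difference of effects).

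Over all genes, *Cxcl12* calls moved from 0 to 353 with DESeq2, 214 with no filter, 123 with the deeper term, 80 outside the deeper group and 25 with all 18 kidneys in 1 fit. *Myc* calls moved from 246 to 1131, 954 (deeper term), 8 (outside the deeper group) and 683 (18 kidneys), calls for the difference of effects from 11 to 324 (DESeq2), 133 (deeper term), 44 (outside) and 3 (limma voom), and those between controls from 316 to 801 (DESeq2). With 3 *Cxcl12* controls, the exact test cannot fall under 0.018, and 135 to 543 reads limit *Tfpi*.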
